A study of Mus musculus with 2 samples.

Results

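The genes carried by the mitochondrial chromosome were described in total RNA of the mouse left cerebral cortex. Members were all annotated genes whose symbol starts with mt-, and 37 of the 55536 genes in the gene table met that rule: 13 mRNA genes, 2 ribosomal RNA (rRNA) genes and 22 transfer RNA (tRNA) genes. The samples were 2 libraries of 1 group, biological replicates 2 and 1, from male mice of the strain 5xFAD/CAST aged 8 to 10 months, with 300 ng of RNA per library after reduction of rRNA and with spike-in RNA added. 5xFAD mice carry human transgenes for the amyloid precursor protein and presenilin 1 with familial Alzheimer disease mutations, driven by the neuronal Thy1 promoter, and CAST is a wild-derived inbred strain. Mice without the transgenes were not analysed here, and which parent strain gave the mitochondrial chromosome is not given in the sources used here. The labels name separate biosamples and 1 strain-level donor, so the spread between the libraries holds whatever separates those biosamples. With 1 group there was no contrast and no p-value.

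The mitochondrial chromosome is a small circle that encodes core subunits of respiratory chain complexes I, III and IV and of the ATP synthase, complex V, together with the rRNAs and tRNAs that translate them. Both strands are transcribed as long precursors, and tRNAs lying between the other genes mark the places where these are cut. Neurons rely on oxidative phosphorylation for synaptic transmission, and mitochondrial transcripts are abundant in cortex.

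In the GENCODE M21 annotation of mm10, 8 of the 15 rRNA and mRNA genes had a tRNA gene next to both ends, 6 next to 1 end, and mt-Atp6 next to neither. The 4 junctions without a tRNA were those of mt-Atp8 with mt-Atp6, mt-Atp6 with mt-Co3, mt-Nd4l with mt-Nd4, and mt-Nd5 with mt-Nd6, which lies on the opposite strand. At the first and the third the reading frames overlap by several bases, and each pair is known to share an RNA. The ends of these frames are shown because they are where the genes of each pair meet. Capitals mark the 43 bases shared by mt-Atp8 and mt-Atp6 and the 7 bases shared by mt-Nd4l and mt-Nd4, on the plus strand of mm10.
mt-Atp8 3′ end, chrM:7910-7969: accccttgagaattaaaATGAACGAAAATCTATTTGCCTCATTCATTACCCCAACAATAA
mt-Atp6 5′ end, chrM:7927-7986: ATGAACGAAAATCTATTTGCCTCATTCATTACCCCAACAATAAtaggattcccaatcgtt
mt-Nd4l 3′ end, chrM:10114-10173: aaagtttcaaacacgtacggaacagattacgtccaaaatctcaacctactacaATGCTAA
mt-Nd4 5′ end, chrM:10167-10226: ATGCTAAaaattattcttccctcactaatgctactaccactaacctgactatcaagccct

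The mRNAs also share compact ends. Of the 13, 9 began with ATG, and mt-Nd2, mt-Nd3, mt-Nd5 and mt-Nd1 began with ATA, ATT, ATC and GTG. The last bases were TAA in 8 and TAG in 2, and the annotated genes of mt-Co3, mt-Nd4 and mt-Cytb ended in a single T of a stop codon, which the poly(A) tail is known to complete. These ends are shown with that T in capitals.
mt-Co3 3′ end, chrM:9361-9390: tatacgtctccatttattgatgaggatctT
mt-Nd4 3′ end, chrM:11515-11544: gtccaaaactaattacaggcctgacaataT
mt-Cytb 3′ end, chrM:15259-15288: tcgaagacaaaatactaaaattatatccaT

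Replicate 2 held 32380330 reads on annotated genes and replicate 1 held 33925221, by expected counts. A floor of 3 reads corresponded to 0.0926 and 0.0884 CPM (reads scaled to equal library totals) in replicates 2 and 1. Markers of excitatory neurons summed to 1538 and 1455 TPM (a level per length, scaled to the same total in each library) in replicates 2 and 1, those of inhibitory neurons to 499 and 483, and those of astrocytes to 1066 and 1053, as the labelled cortex should hold them. Those of oligodendrocytes summed to 1236 and 1264 TPM, of microglia to 132 and 144, of endothelium to 37.2 and 37.8 and of blood to 200.4 and 175.6 TPM in replicates 2 and 1. All 4 choroid plexus markers were lower in replicate 2, with summed levels of 105.3 TPM in replicate 2 and 548 TPM in replicate 1. Of the other 28 cell type markers, 0 differed by the counting rule given below, which 1.22% of all tested genes met. In bulk tissue fewer cells of a type and less RNA per cell cannot be told apart.

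Mitochondrial genes took a large part of the reads, mostly through the rRNAs. Members held 9.47% of the gene reads in replicate 2 (95% Clopper-Pearson interval 9.46 to 9.48%) and 10.7% in replicate 1 (10.66 to 10.68%). The rRNAs made up 77.4% and 77.1% of the members' reads in replicates 2 and 1, although the libraries had been reduced in rRNA. The 13 mRNAs held 2.14% of gene reads in replicate 2 (2.13 to 2.14%) and 2.44% in replicate 1 (2.43 to 2.44%). Counting error of reads within 1 library is all that these intervals hold, and the spread between libraries is left out. The reads carry no molecular identifiers and repeats of 1 molecule are counted again, so the intervals can be too narrow even for counting error. Per length, the mRNAs made up 7.18% and 8.23% of the TPM of all protein-coding genes in replicates 2 and 1. With the reads of the nuclear copies described below added to them, that share was 10.2% and 11.4%.

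The rRNAs were the most abundant members per length. mt-Rnr1 (ENSMUSG00000064337.1, chrM:70-1024), the small ribosomal RNA, stood at 39371 TPM in replicate 2 and 40259 TPM in replicate 1. The large ribosomal RNA gene mt-Rnr2 (ENSMUSG00000064339.1, chrM:1094-2675) stood at 49126 and 52220 TPM in replicates 2 and 1, places 4 and 5 of all genes going to mt-Rnr2 and mt-Rnr1 in both libraries. Both are cut from the same precursor, and mt-Rnr2 exceeded mt-Rnr1 by a ratio of 1.27 ± 0.0349 in TPM (SD, n = 2). Their mean was 20.3 times the median mRNA in replicate 2 and 19.5 times in replicate 1. How much of either rRNA the depletion removed is not known, so these ratios describe the libraries.

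The tRNAs carry amino acids to the mitochondrial ribosome, and all 22 were listed at 0 reads in both libraries and both deposited quantifications. They span 59 to 75 bases. The effective length in the gene table was the length minus 100 bases, so no tRNA had room for a read of 101 bases, and the 0 there says nothing on their level. The est_counts table gave each tRNA an effective length, of 18.5 to 34.0 bases, and also listed 0 reads; why was not tested. The shortest, mt-Ts2, a serine tRNA, and the longest, mt-Tl1, a leucine tRNA, are shown whole to give that scale.
mt-Ts2, chrM:11613-11671: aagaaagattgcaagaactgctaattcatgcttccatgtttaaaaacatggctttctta
mt-Tl1, chrM:2676-2750: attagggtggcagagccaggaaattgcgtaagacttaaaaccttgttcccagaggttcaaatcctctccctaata

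All 13 mRNAs had reads, and 11 of them were among the 30 genes with the highest mean TPM. For complex I, which takes electrons from NADH, the median of the 7 members was 1738 TPM in replicate 2 and 1884 TPM in replicate 1. mt-Nd1 (chrM:2751-3707) was the highest of them at 3548 and 3815 TPM in replicates 2 and 1. Levels of mt-Nd4l were 2326 and 2373 TPM, those of mt-Nd4 2184 and 2282, those of mt-Nd2 1738 and 1884, those of mt-Nd3 1677 and 1795, and those of mt-Nd5 1447 and 1584 TPM in replicates 2 and 1. mt-Nd6 (ENSMUSG00000064368.1, chrM:13552-14070), the only mRNA gene on the minus strand, was the lowest of all 13 at 253.2 and 254.1 TPM. Complex III has 1 mitochondrial subunit, cytochrome b, and its gene mt-Cytb (chrM:14145-15288) stood at 3860 and 3962 TPM in replicates 2 and 1.

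The subunits of cytochrome oxidase, complex IV, which reduces oxygen, were listed far apart. mt-Co1 (ENSMUSG00000064351.1, chrM:5328-6872), the catalytic subunit, was the highest mRNA at 7078 TPM in replicate 2 and 7298 TPM in replicate 1. Levels of mt-Co3 (ENSMUSG00000064358.1, chrM:8607-9390) were 5101 and 6086 TPM. In contrast, mt-Co2 (ENSMUSG00000064354.1, chrM:7013-7696), which receives electrons from cytochrome c, was listed at only 441 and 543 TPM, 0.0623 and 0.0744 of mt-Co1. For the ATP synthase, mt-Atp6 (ENSMUSG00000064357.1, chrM:7927-8607), the proton channel subunit, stood at 3222 and 3447 TPM, and mt-Atp8 (chrM:7766-7969) at 2115 and 2417 TPM in replicates 2 and 1. Highest over lowest mRNA, the span was 27.9 in replicate 2 and 28.7 in replicate 1, and without mt-Nd6 it was 16.04 and 13.4, with mt-Co2 at the low end.

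The listed levels of mt-Co2, mt-Atp6 and mt-Co3 rest on a split of reads with nuclear genes of the same sequence. A search of all M21 transcripts found 10 nuclear genes that held at least 1 stretch of 101 bases of a member on the same strand. Of these, 7 lie in a row on the minus strand of chromosome 1, between 24611535 and 24616197, as the same genes do from mt-Co1 to mt-Nd4, and 3 lie on chromosome 2. Gm28661 (copy of mt-Co2), Gm10925 (of mt-Atp6), Gm28437 (of mt-Co3), Gm10222 (of mt-Nd4l) and Gm28439 (of the first 876 bases of mt-Nd4) had 0 mismatches over their 681, 678, 783, 294 and 876 bases. Such insertions of mitochondrial sequence into nuclear chromosomes are known from many genomes. Only 3 of the 584 windows of 101 bases in mt-Co2 were found in no other annotated gene, 3 of 581 in mt-Atp6 and 1 of 684 in mt-Co3. In mt-Nd3 it was 6 of 248 and in mt-Nd4l 3 of 197, so the split of their reads also rests on few windows. For mt-Co1 it was 1002 of 1445, for mt-Nd4 502 of 1278 and for mt-Nd2 909 of 938. For mt-Nd1, mt-Nd5, mt-Nd6, mt-Cytb, mt-Atp8 and the rRNAs it was every window.

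The remaining chromosome 1 copies differ from their member at the start alone. Gm29216 copies the last 492 bases of mt-Co1 with 6 substitutions, T1056A, C1057T, A1059G, A1060G, C1062A and A1066T, and Gm28438 copies mt-Nd3 with 1, T3C, where the member's base comes first and positions count from the 5′ end of the member. Their first 60 bases are shown beside the member, with the differing bases in capitals, because reads over them can tell the genes apart.
mt-Co1, chrM:6381-6440, plus strand: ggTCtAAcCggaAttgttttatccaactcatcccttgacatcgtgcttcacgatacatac
Gm29216, chr1:24616138-24616197, minus strand: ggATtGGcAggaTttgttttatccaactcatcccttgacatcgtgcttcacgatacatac
mt-Nd3, chrM:9459-9518, plus strand: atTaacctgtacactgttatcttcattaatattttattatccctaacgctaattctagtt
Gm28438, chr1:24613060-24613119, minus strand: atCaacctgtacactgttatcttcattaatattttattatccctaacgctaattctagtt

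In the gene table the copies of mt-Co2 and mt-Atp6 held more reads than the members. mt-Co2 had 5745 reads in replicate 2 and 7918 in replicate 1, whereas Gm28661 had 105523 and 120734, so that 5.16% and 6.15% of the pooled reads stood at mt-Co2. At mt-Atp6 there were 41735 and 50004 reads against 81806 and 93435 at Gm10925, and the share at mt-Atp6 was 33.8% and 34.9% in replicates 2 and 1. For mt-Co3 the split went the other way, with 77794 and 103945 reads against 23341 and 15512 at Gm28437, or 76.9% and 87.0% at mt-Co3. mt-Co1 kept 91.9% and 91.5%, with 20169 and 24395 reads at Gm29216.

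Copies of the downstream genes were near 0. Gm28438 and Gm28439 were listed at 0 reads in both libraries, against 9276 and 11119 reads at mt-Nd3 and 62222 and 72839 reads at mt-Nd4 in replicates 2 and 1. Gm10222 was listed at 0 reads in replicate 2 and 565 in replicate 1, against 10216 and 11673 at mt-Nd4l. The 3 chromosome 2 copies summed to 111 and 115 reads, none of them with a mean of 100 reads. Neighbouring copies of 1 nuclear block were thus listed at very different levels, and whether reads came from the nuclear or the mitochondrial gene cannot be told apart where the sequences are identical.

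The deposited table also gives posterior mean counts, an average over the ways the reads can be assigned, with a standard deviation. For mt-Co2 these were 26616 ± 4951 reads in replicate 2 and 35550 ± 4705 in replicate 1, against 84651 ± 4951 and 93101 ± 4704 at Gm28661. The authors' deposited interval for mt-Co2 ran from 1158 to 2633 TPM in replicate 2 and from 1759 to 2964 TPM in replicate 1, above the listed 441 and 543 TPM. For mt-Co3 the listed 5101 and 6086 TPM lay above the authors' deposited intervals of 2984 to 4046 TPM in replicate 2 and 3188 to 4279 TPM in replicate 1. mt-Atp8 and mt-Nd6, which have no annotated copy, kept their counts with a posterior standard deviation of 0 reads. Sequence outside annotated genes was not searched. Between Gm10925, which ends at 24614651 on chromosome 1, and Gm28661, which starts at 24614885, lies a stretch where mt-Atp8 would fall by gene order. Whether reads of mt-Atp8 also match that stretch was not tested. The sum of a member and its copies did not depend on the assignment: it was 111320 reads in replicate 2 and 128722 in replicate 1 for mt-Co2 by either count.

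**Figure D1:**
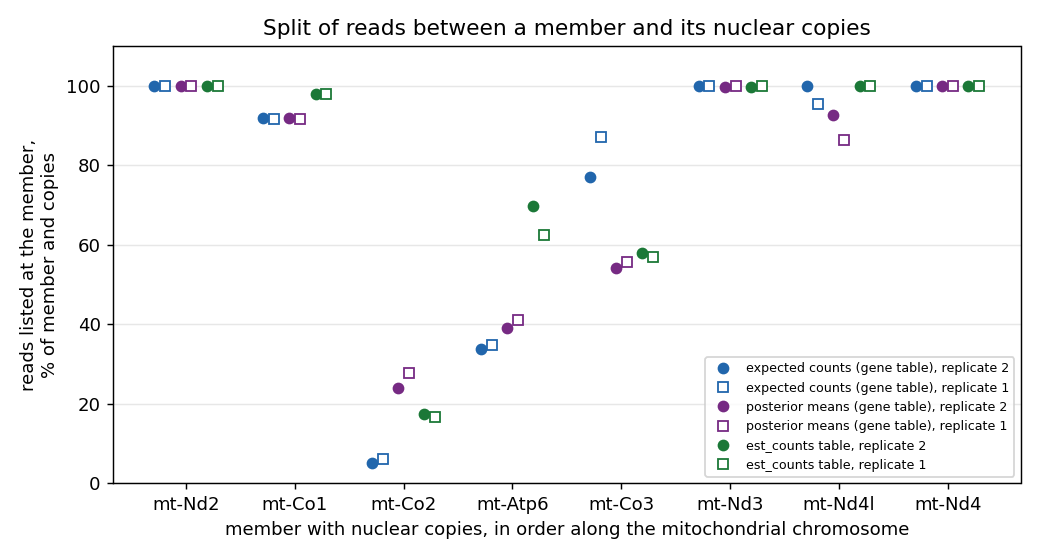
Percent of the reads of a member and its nuclear copies that are listed at the member (y axis), for the 8 mRNAs with copies, by expected counts, posterior means and the est_counts table, with filled circles for replicate 2 and open squares for replicate 1. The share at mt-Co2 runs from 5.16% to 27.6%, that at mt-Atp6 from 33.8% to 69.8% and that at mt-Co3 from 54.0% to 87.0%, while mt-Nd2, mt-Nd3 and mt-Nd4 stay above 99%.

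With the reads of the copies added to their member, the levels changed order. mt-Atp6 then stood at 9536 TPM in replicate 2 and 9887 TPM in replicate 1, and mt-Co2 at 8549 and 8827 TPM. mt-Co1 followed at 7706 and 7975 TPM and mt-Co3 at 6631 and 6994 TPM. The 4 mRNAs of the stretch from mt-Co1 to mt-Co3 with copies were then the highest 4, and none of their ranges over the libraries overlapped. By est_counts with the copies these genes kept that order, at 9127 ± 1407, 8334 ± 1050, 7905 ± 979 and 6577 ± 943 TPM (SD, n = 2), with overlapping ranges. In the gene table with the copies, mt-Co2 was 1.11 times mt-Co1 in both libraries, and the span without mt-Nd6 was 6.59 and 6.24 in replicates 2 and 1. The sum assigns every shared read to the mitochondrial gene and is an upper limit for the member in this table.

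**Figure D2:**
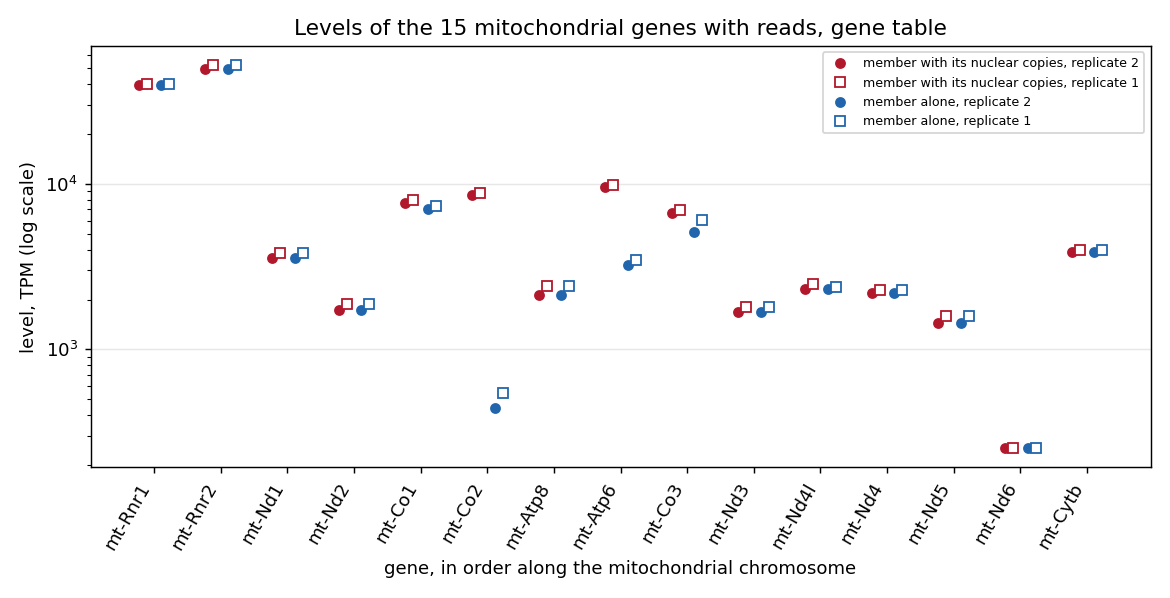
TPM in the gene table (y axis, log scale) of the 15 members with reads in their order along the chromosome, for the member with its nuclear copies (red) and alone (blue), with filled circles for replicate 2 and open squares for replicate 1. mt-Co2 stands at 8549 and 8827 TPM with its copies against 441 and 543 TPM alone, mt-Nd6 is lowest at 253.2 and 254.1 TPM, and the rRNAs are about 20 times the median mRNA.

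Among the other mRNAs the order was the same with or without the copies: mt-Cytb at 3911 ± 72.5 TPM (SD, n = 2) and mt-Nd1 at 3681 ± 189 TPM, then a group of mt-Nd4l, mt-Atp8 and mt-Nd4 at 2407 ± 115, 2266 ± 213 and 2233 ± 69.9 TPM with the copies. The range of mt-Atp8 overlapped those of mt-Nd4l and mt-Nd4, so its place among them is not set by these data. By gene table TPM mt-Nd4l lay above mt-Nd4 in both libraries, but it lay below mt-Nd4 by posterior means without the copies. mt-Nd2 and mt-Nd3 at 1811 ± 103 and 1736 ± 83.4 TPM overlapped as well, and mt-Nd5 at 1515 ± 97.1 TPM lay below both.

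Genes that share an RNA gave different ratios. mt-Nd4l over mt-Nd4 was 1.07 in replicate 2 and 1.04 in replicate 1, and 1.07 and 1.09 with the copies. mt-Atp8 over mt-Atp6 was 0.657 and 0.701, and 0.222 and 0.244 with the reads of Gm10925 added. Without Gm10925, that ratio sets a gene with no annotated copy against a gene whose reads are split with a copy. mt-Atp8 has 104 windows of 101 bases in its 204 bases, so few read positions carry its level, and by reads per full length the mt-Atp8 ratio was 0.392 and 0.419 in replicates 2 and 1. The ratio of mt-Atp8 to mt-Atp6 thus depended on the copy and on the length scale by more than the libraries differed. The ratio of mt-Nd4l to mt-Nd4 also moved with the measure. It was 0.762 and 0.744 by reads per full length, and 0.987 and 0.942 by posterior means without the copies, in replicates 2 and 1. By est_counts it was 1.59 and 0.916.

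By strand, the median of the 12 mRNAs of the plus strand was far above mt-Nd6. mt-Nd6 was 0.112 of that median in replicate 2 and 0.106 in replicate 1, and 0.0862 and 0.0806 with the copies added. Without its copies mt-Co2 was nearer, at 441 and 543 TPM against 253.2 and 254.1 TPM for mt-Nd6 in replicates 2 and 1. By est_counts mt-Atp8 lay below mt-Nd6, at 10.4 and 0.430 TPM against 287 and 341 TPM. mt-Nd5 and mt-Nd6 overlap by 14 bases at their 3′ ends on opposite strands. The library kit was directional, but the strand setting of the counting is not given in the sources used here, so reads of mt-Nd6 and of the antisense precursor over it cannot be told apart. Along the plus strand there was no steady order by distance: Spearman's rho between start position and TPM over the 12 mRNAs was -0.0769 and -0.140 in replicates 2 and 1, and -0.266 and -0.301 with the copies, as a description of points that share 1 library.

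The libraries were also quantified directly from the reads in a transcript table with est_counts values. Summed over the 13 mRNAs, est_counts were 1.14 times the gene table in replicate 2 and 1.05 times in replicate 1. With the copies added in both tables the ratios were 1.03 and 0.978. Summed over all genes, est_counts were 1.14 and 1.09 times the gene table in replicates 2 and 1. The mRNA share of gene reads was thus 2.14% in both tables in replicate 2. In replicate 1 it was 2.35% by est_counts against 2.44% in the gene table. Across all genes with at least 10 reads in both tables, the median log2 ratio of est_counts over gene table reads was 0.22 in replicate 2 and 0.17 in replicate 1. Of the 15 members with reads, mt-Co2 and mt-Atp8 differed at least 2-fold in both libraries, against 16.4% of all 21681 genes compared in replicate 2 and 14.9% of 21414 in replicate 1. The 2 of 15 are near these shares, so their number does not set the members apart.

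mt-Co2 had 18074 and 18298 reads by est_counts in replicates 2 and 1, a log2 ratio to the gene table of 1.65 and 1.21. Its copy Gm28661 had 85147 and 91201, and together the log2 ratios were -0.11 and -0.23. mt-Atp6 was likewise higher by est_counts, by 0.88 and 0.60 on the log2 scale alone, against -0.17 and -0.24 with Gm10925. For mt-Co3 the values were -0.45 and -0.76 alone, against -0.05 and -0.15 with Gm28437. Taken from equal reads, the tables were closer on the sums than on the members in all 3 cases and in both libraries. These sums all lay below the all-gene median log2 ratios of 0.22 in replicate 2 and 0.17 in replicate 1.

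mt-Atp8 differed most. It had 14 reads in replicate 2 and 1 read in replicate 1 by est_counts, against 4905 and 6277 in the gene table. Per read at mt-Atp6 that was 0.0182% (95% interval 0.00997 to 0.0306%) in replicate 2 and 0.00132% (3.34e-05 to 0.00735%) in replicate 1 by est_counts, against 11.8% and 12.6% in the gene table. The est_counts table took 225 and 260 bases off the length of long transcripts to give their effective length in replicates 2 and 1, which is more than the 204 bases of mt-Atp8. It listed effective lengths of 45.6 and 81.9 bases for mt-Atp8 and of 88.7 and 121 bases for mt-Nd4l. mt-Nd4l had 8506 and 7697 est_counts reads in replicates 2 and 1, a log2 ratio to the gene table of -0.26 and -0.60. The part of transcript length in the loss at mt-Atp8 was not tested.

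**Figure D3:**
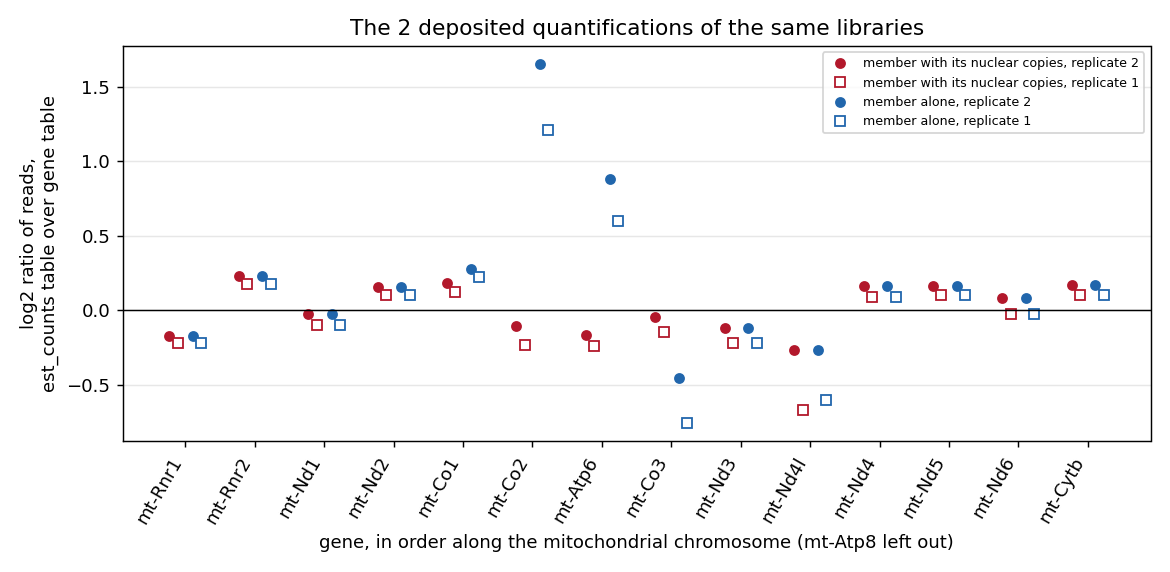
Log2 ratio of reads in the est_counts table over the gene table (y axis) for 14 members, with nuclear copies added in both tables (red) and for the member alone (blue), with filled circles for replicate 2 and open squares for replicate 1. mt-Atp8 is left out of the plot because its log2 ratios, -8.45 and -12.62, would compress the others. mt-Co2 falls to -0.11 and -0.23 with its copies, against 1.65 and 1.21 alone.

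Between the libraries, all 15 members with reads were lower in replicate 2, each by a small amount. The log2 ratio of replicate 2 over replicate 1, scaled by TMM (a factor that sets most genes equal), had a median of -0.23 over the 13 mRNAs and ran from -0.43 at mt-Co2 to -0.13 at mt-Nd6. Every member's 95% counting interval lay below 0 on this scale. These intervals take the assigned reads as given, so they leave out the posterior standard deviations, 4951 and 4705 reads at mt-Co2 in replicates 2 and 1. With spike-in reads as the scale, the mRNA ratio nearest to 0 was -0.053, and no intervals were taken there. The rRNAs stood at -0.16 for mt-Rnr1 and -0.22 for mt-Rnr2. A gene was called different where it differed at least 2-fold, had at least 10 reads in a library and had a stringent counting interval that excluded equal levels, and 0 of the 15 members were, against 1.22% of 19463 genes. By est_counts 0 of 15 were called, against 1.36% of 21988 genes; mt-Atp8 was over 2-fold apart there but its few reads did not meet the stringent interval. Over all tested genes the median was -0.00055. Of 3326 other genes whose reads numbered at least 2000 in each library, a limit set after the values were seen, 3.40% lay further than 0.2 from 0 on the log2 scale. The share was 34.8% of all tested genes, 61.5% of the 13 mRNAs alone and 53.8% of them with the copies added. The limit of 0.2 was not a planned setting and is close in size to the mRNA medians, -0.23 alone and -0.20 with the copies. The 13 values come from the same 2 libraries and from shared precursors, so these shares do not count separate differences. No replication of this difference between 2 libraries was available, and the fall of the choroid plexus markers went with it. On the same scale the median log2 ratios of the other marker lists were -0.14 for astrocytes, -0.13 for oligodendrocytes and -0.16 for microglia, with 4 of 4 markers below 0 in each, -0.22 for endothelium with 2 of 3, -0.08 for inhibitory neurons with 5 of 5, -0.01 for blood with 2 of 3 and 0.03 for excitatory neurons with 2 of 5. The part of these marker differences in the values of the mitochondrial genes was not tested.

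The spread of the ratios among mRNAs narrowed with the copies added. mt-Co2 then stood at -0.17 (95% counting interval -0.19 to -0.16) against -0.43 alone, and mt-Co3 at -0.20 (-0.22 to -0.19) against -0.38 alone. Its copy Gm28437 went the other way, at 0.62, with 23341 reads in replicate 2 and 15512 in replicate 1. mt-Nd4l stood at -0.23 with Gm10222 and -0.16 alone. Gm10222 alone was at least 184-fold lower in replicate 2, at a floor of 3 reads there, yet its posterior mean counts were 755 ± 396 reads in replicate 2 and 1661 ± 508 in replicate 1. By est_counts, 11 of the 13 mRNAs were lower in replicate 2, and mt-Nd4l at 0.12 and mt-Atp8 at 3.24 (95% counting interval 1.06 to 9.18, from its 14 and 1 reads) were higher.

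**Figure D4:**
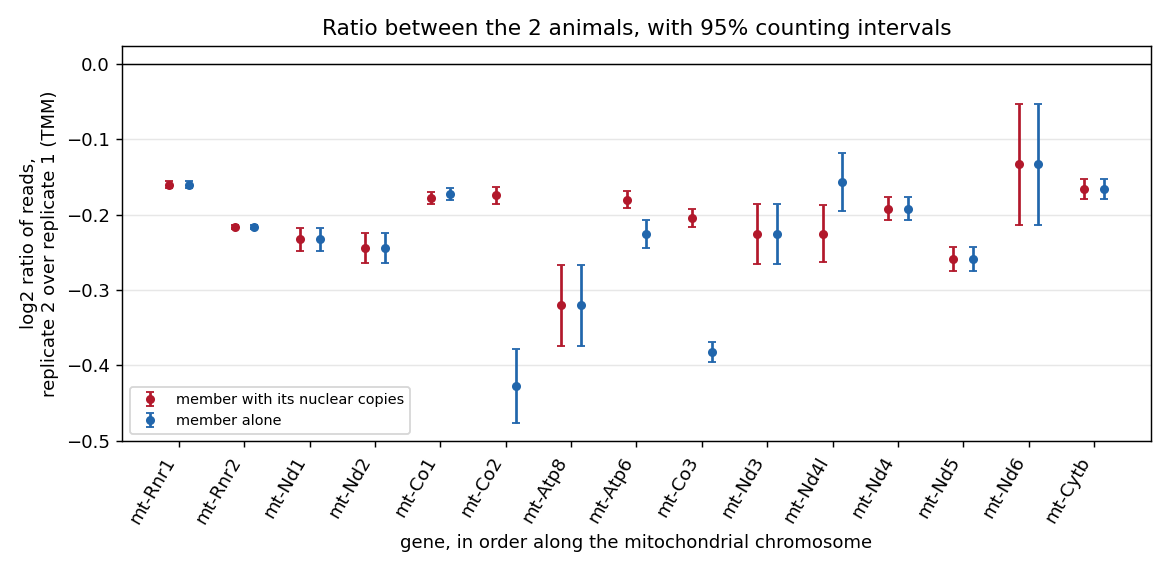
Log2 ratio of gene table reads, replicate 2 over replicate 1 after TMM scaling (y axis), for the 15 members with reads in their order along the chromosome, with nuclear copies (red) and alone (blue); bars are 95% counting intervals. All points lie below 0, between -0.43 and -0.13, and mt-Co2 and mt-Co3 move to -0.17 and -0.20 with their copies.

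The nuclear genome encodes the other subunits of the same complexes, and the medians of the lists described here stood far lower per length. For complex I, the 7 mitochondrial subunits had a median 16.3 times that of 7 nuclear core subunits in replicate 2 and 19.1 times in replicate 1, with Ndufv2, a subunit of its NADH-oxidizing part, at 109 ± 1.70 TPM. For complex III, mt-Cytb was 25.01 and 28.2 times the median of 9 nuclear subunits, led by Uqcrh at 180 ± 2.05 and Uqcrq at 176 ± 4.75 TPM. For complex IV the ratio to 10 nuclear subunits was 18.5 and 22.2, and 28.0 and 29.04 with the copies. The highest of these nuclear genes were Cox4i1 at 513 ± 7.59 and Cox8a at 478 ± 6.10 TPM, close to mt-Co2 as listed at 492 ± 72.0 TPM without its copies. For complex V it was 15.8 and 18.6 against 15 nuclear subunits, and 34.5 and 39.1 with the copies, with Atp5b and Atp5a1, the catalytic core of the enzyme, at 747 ± 8.13 and 334 ± 20.2 TPM. All ratios are of TPM, in replicates 2 and 1.

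**Figure D5:**
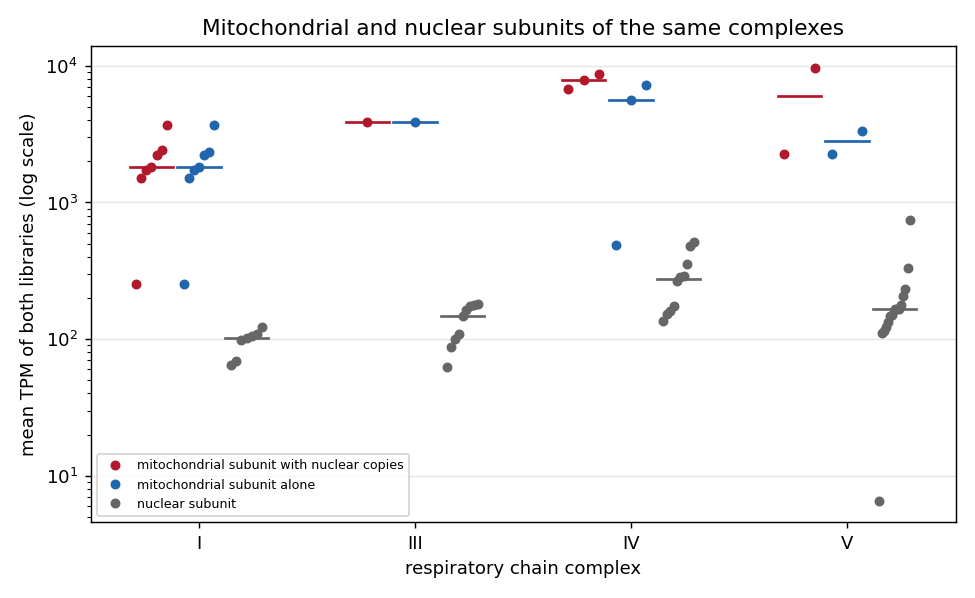
Mean TPM of both libraries (y axis, log scale) for subunits of complexes I, III, IV and V; each point is a gene and each bar the median, for mitochondrial subunits with their copies (red), mitochondrial subunits alone (blue) and nuclear subunits (grey). Median levels of mitochondrial subunits are 1738 and 1884 TPM for complex I in replicates 2 and 1, against 106 and 98.4 TPM for its nuclear subunits.

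Of the 41 nuclear subunits, 34 were lower in replicate 2, and 0 met the 2-fold rule. Over all 19463 tested genes, 50.1% were lower and 1.22% met the rule, so 0 of 41 does not set the subunits apart. Median log2 ratios of the nuclear subunits were -0.01 for complex I, -0.07 for complex III, -0.11 for complex IV and -0.03 for complex V. Those compare with -0.00055 over all genes and -0.23 for the mitochondrial mRNAs. Genes that transcribe and copy the mitochondrial chromosome stood much lower, at a median of 8.60 TPM in replicate 2 and 7.33 TPM in replicate 1. Polg, the polymerase that copies it, was highest at 32.9 ± 4.07 TPM, followed by Polrmt, the polymerase that transcribes it, at 20.4 ± 1.65 TPM. Only 2 of the 15 genes of this list had a log2 ratio below 0, and the list's median was 0.10.

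Genes that cut and modify mitochondrial RNA had a median of 7.38 and 6.68 TPM in replicates 2 and 1, with Hsd17b10, a part of the nuclease that frees the 5′ ends of tRNAs, at 20.7 ± 0.750 TPM and the pseudouridine synthase gene Trub2 at 19.1 ± 1.15 TPM. Genes of mitochondrial RNA stability and polyadenylation had a median of 13.5 and 12.8 TPM. Fastk, known to be needed for the mt-Nd6 mRNA, stood at 58.8 ± 4.81 TPM and Slirp, a partner of Lrpprc that protects the mRNAs, at 48.0 ± 2.75 TPM. The median log2 ratios of these lists were 0.02 over 18 genes and -0.01 over 17. In all 3 lists together, 0 of 50 genes met the 2-fold rule, against 1.22% of all tested genes, so the 0 does not set these lists apart.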

How the data were processed

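The authors deposited expected counts and TPM per gene in a table with an RSEM-format header, with posterior mean counts, their standard deviation and TPM bounds; the interval level is not given in the sources used here. A second deposited table, with a kallisto-format header, holds estimated counts and TPM per transcript. Per the deposited text description, the first came from transcriptome alignments and the second from the reads, on mm10 with annotation M21; for the aligner, versions and strand setting: not given in the sources used here. Members and lists were chosen with earlier results of these data known. Transcripts were summed per gene, and gene reads exclude spike-ins, control and tRNA entries without a gene. Copies were found by exact 101-base matches in GENCODE M21 transcripts on the same strand; sequence outside annotated genes was not searched. Pooled TPM uses the member's effective length. Ratios add 0.5 reads and use TMM sizes (edgeR 4.0.16, on rounded expected counts). Intervals are Clopper-Pearson (SciPy 1.17.1). Named genes were all members, the 2 highest of each related list and copies with a mean of at least 100 reads (Gm28438 and Gm28439 fall outside it); 1 gene that the rule names is not reported here. Alternatives included DESeq2 1.42.0 size factors, spike-in scaling, other pseudocounts and denominators, full-length scaling, the est_counts table and added copies.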

Additional observations from a re-analysis of the deposited data

How the results depend on the processing

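Leaving out each library gave 9.47 to 10.7% for the share of all members, 2.14 to 2.44% for the mRNA share, 27.9 to 28.7 for the mRNA span, 0.657 to 0.701 for mt-Atp8 over mt-Atp6, 1.04 to 1.07 for mt-Nd4l over mt-Nd4, 0.106 to 0.112 for mt-Nd6 over the plus-strand median, 19.5 to 20.3 for rRNA over mRNA, 1.25 to 1.30 for mt-Rnr2 over mt-Rnr1 and 1.05 to 1.14 for est_counts over gene table reads. Ratios of replicate 2 over replicate 1 need both libraries. No paired analysis was possible because there is 1 group. Results are means of both libraries here. With nuclear copies added, the mRNA share was 3.02%, the span 38.3, mt-Atp8 over mt-Atp6 0.233, mt-Nd4l over mt-Nd4 1.08, mt-Nd6 over the median 0.0834, rRNA over mRNA 18.8, est_counts over gene table reads 1.01 and the median log2 ratio -0.20. In the est_counts table the span was 10145 (682 in replicate 2 and 19608 in replicate 1), with mt-Atp8 lowest at 14 and 1 reads, mt-Atp8 over mt-Atp6 was 0.000946 (0.00182 and 6.79e-05), mt-Nd4l over mt-Nd4 1.25 (1.59 and 0.916), mt-Nd6 over the median 0.126, rRNA over mRNA 19.2, mt-Rnr2 over mt-Rnr1 1.55 and the median log2 ratio -0.16. By reads per full length the span was 32.8, mt-Atp8 over mt-Atp6 0.406, mt-Nd4l over mt-Nd4 0.753, rRNA over mRNA 25.4 and mt-Rnr2 over mt-Rnr1 1.33. Nuclear protein-coding genes plus members as denominator gave 11.3% for all members and 2.58% for mRNAs. With TPM in place of reads, est_counts over the gene table was 1.03. The median log2 ratio was -0.19 by total counts and -0.15 by spike-in reads, by which the median of all tested genes was 0.08. Posterior mean TPM, chosen after seeing the data, gave 0.581 for mt-Atp8 over mt-Atp6 and 0.964 for mt-Nd4l over mt-Nd4. mt-Nd4l over mt-Nd4 thus lay above 1 in the gene table and below 1 by full length and by posterior means without the copies. By posterior means with the copies it was 1.08. The median log2 ratio stayed below 0 under each alternative. The number of members that met the 2-fold counting rule was 0 under each, though mt-Atp8 differed by 3.24 on the log2 scale by est_counts. The cause of the other changes was not tested.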
